A study of Mus musculus with 51 samples.

Results

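Ghitm and Ldhb, a mitochondrial membrane gene and a lactate dehydrogenase gene, were followed across captured regions of the mouse cochlea after noise or mock exposure. They are 2 of the 6248 genes listed in the signal files. Both were picked by name because of how they differed between noise and mock: Ghitm in neuron regions and Ldhb in supporting-cell regions. Those differences are therefore given as descriptions, with no test.

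Male CBA/CaJ mice aged 16 weeks received either 2 h of broadband noise at 100 dB SPL or a mock exposure without noise, with 5 animals per treatment. Titles add 4 h to the exposure, whereas the design text places collection directly afterwards, so the interval between noise and collection is not settled. Expression was measured with GeoMx, in which light frees barcoded probes from selected parts of a section for counting by sequencing, on 6 µm fresh-frozen sections. The 50 regions used were 16 mock and 12 noise neuron regions and 14 mock and 8 noise supporting-cell regions. One more noise neuron region, replicate 6, had equal values for every gene and was left out. The groups carried no transgene or drug per the labels, although the series title names a compound of the heat-shock pathway. Which animal a region came from is not given. Since all 4 groups have more regions than there were animals (5), animals contributed several regions, and p-values computed over regions are too small throughout. Numbered capture areas were named for 1 treatment each, so treatment and any effect of slide or capture cannot be told apart.

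Ghitm encodes a protein of the mitochondrial inner membrane, also called TMBIM5 or MICS1, that helps to keep the folds of that membrane in order and to move calcium across it. Ldhb encodes the B subunit of lactate dehydrogenase, the enzyme that interconverts lactate and pyruvate; tetramers rich in the B subunit are known for turning lactate into pyruvate, which mitochondria then burn. In the cochlea, spiral ganglion neurons carry the signal of the hair cells to the brainstem and are wrapped by Schwann cells and satellite glia, and lactate is one of the fuels that glia can pass to neurons.

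In RefSeq (GRCm38.p6, the build named in the submitters' processing notes as GRCm38 and mm10), Ghitm spans chr14:37120444-37135322 and Ldhb chr6:142490249-142507957, both on the minus strand and each with 3 transcripts. The deposited tables hold no probe sequences. The 250 bases before each start site are shown as the promoter context of the genes compared here, 5′ to 3′ on the gene's strand, for the first of 3 listed Ghitm starts at chr14:37135323-37135572 and the listed Ldhb start at chr6:142507958-142508207. Capitals mark matches on either strand to CCAAT, to the GC box GGGCGG and to TGACG, the core of the cAMP response half-site.
Ghitm promoter: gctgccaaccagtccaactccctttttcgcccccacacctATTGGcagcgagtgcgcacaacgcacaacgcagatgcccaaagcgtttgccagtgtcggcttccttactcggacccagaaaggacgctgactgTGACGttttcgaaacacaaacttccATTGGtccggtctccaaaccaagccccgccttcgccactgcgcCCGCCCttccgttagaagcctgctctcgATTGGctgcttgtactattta
Ldhb promoter: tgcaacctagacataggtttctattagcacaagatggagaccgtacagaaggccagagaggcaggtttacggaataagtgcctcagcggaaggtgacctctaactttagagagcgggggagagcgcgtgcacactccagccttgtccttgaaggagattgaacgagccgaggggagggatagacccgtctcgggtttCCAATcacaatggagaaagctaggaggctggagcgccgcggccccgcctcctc
The Ghitm window held CCAAT at 3 places, whose first bases lie 210, 92 and 21 bases before the start, with 1 GC box at 49 bases and 1 TGACG at 117 bases. The Ldhb window held 1 CCAAT, at 53 bases. Among 32851 RefSeq windows of the same length, 33.8% held CCAAT, 32.7% the GC box and 17.8% TGACG. Neither window held TATAAA (12.4% of windows), the E-box CACGTG (6.02%) or the heat-shock element cores GAANNTTC (6.69%) and TTCNNGAA (7.17%), searched on both strands. The GC content was 56.4% in both windows, against a median of 52.4%. These matches describe letters only.

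The regions were shallow, with 9607 to 88156 recovered reads each over all listed genes, and no value lay below 1 read. Median depth was 23494 reads in mock neuron, 26710 in noise neuron, 12885 in mock supporting-cell and 16882 in noise supporting-cell regions. The deposited signal is scaled so that the upper quartile gene of every region has the value 3.12, and 1 read is worth 0.208 to 1.56 signal units. In these regions fewer cells of a type and less RNA per cell cannot be told apart. Markers separated the region types. All 9 listed neuron markers, such as Nefl, Thy1 and Snap25, were called higher in neuron regions by limma, beside 17.2% of all genes. All 7 listed glia markers were lower in neuron than in supporting-cell regions. Of them 6, such as Pmp22 and Mbp, were called, beside 6.08% of all genes called lower. Of 9 organ of Corti supporting-cell markers only Sox2, Cdkn1b and Prox1 were listed. Their summed signal had medians of 6.55 in mock supporting-cell and 6.50 in mock neuron regions, so those genes did not mark the supporting-cell regions. The remaining markers of that list were not analysed here. Of 3 listed bone and connective tissue markers, limma called Coch (-1.46, adjusted p = 9.71e-19) and Sparc (-0.62, adjusted p = 0.00018) lower in neuron regions, and Spp1 (1.23) higher. Coch also differed between noise and mock supporting-cell regions, by -0.95 (limma adjusted p = 0.0332).

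Ghitm was highest in mock neuron regions. Its signal there was 6.86 ± 3.01 (SD, n = 16), with a lowest value of 3.12, a median of 6.11 and a highest of 13.5. In noise neuron regions the signal was 3.16 ± 1.74 (SD, n = 12), from 1.04 through a median of 3.12 to 5.79. All 12 noise neuron regions lay below the mock median, 5 lay below the lowest mock region, and 8 of the 16 mock regions lay above the highest noise region, while the remaining values overlapped. Those 8 mock regions ran from replicate 1, at 7.02, to replicates 2 and 3, at 12.5 and 13.5.

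In supporting-cell regions Ghitm was low under both treatments. The signal was 2.61 ± 1.36 (SD, n = 14) after mock exposure, from 1.56 through 2.08 to 6.24. After noise it was 2.57 ± 0.87 (SD, n = 8), from 1.56 through 2.73 to 3.90. The 2 sets of supporting-cell values overlapped almost wholly. These levels sit near the counting limit: the median was 2 reads after mock and 3 after noise, 5 of 14 mock regions and 1 of 8 noise regions held a single read, and the signal was below the region's own negative probe in 5 and 1 of them. In neuron regions the median was 9.5 reads after mock and 4.5 after noise. No mock neuron region lay below its negative probe, and 3 noise neuron regions did.

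The order of Ghitm levels was thus mock neuron, noise neuron, mock supporting-cell and noise supporting-cell regions, and the last 3 neighbours in that order lay within each other's SD. Reads summed over a group gave the same order, with 3.77 Ghitm reads per 10000 in mock neuron, 2.12 in noise neuron, 1.70 in mock supporting-cell and 1.66 in noise supporting-cell regions.

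On the log2(signal + 1) scale, where differences of weakly expressed genes come out too small, Ghitm differed between noise and mock neuron regions by -0.95 (SE 0.21), a ratio of 0.516. This contrast chose the gene and carries no test. In supporting-cell regions, which did not choose it, the difference was 0.03 (SE 0.24; 95% interval -0.45 to 0.50; limma adjusted p = 0.983), and 4 of 8 noise regions lay below the mock mean. An exact permutation test of the single gene gave p = 0.894 (two-sided, n = 8 and 14). No difference was detectable at this depth, and one inside that interval could not have been seen. The supporting-cell difference minus the neuron difference was 0.98 (SE 0.32), given without a test because Ghitm was chosen on 1 of its terms.

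**Figure D1:**
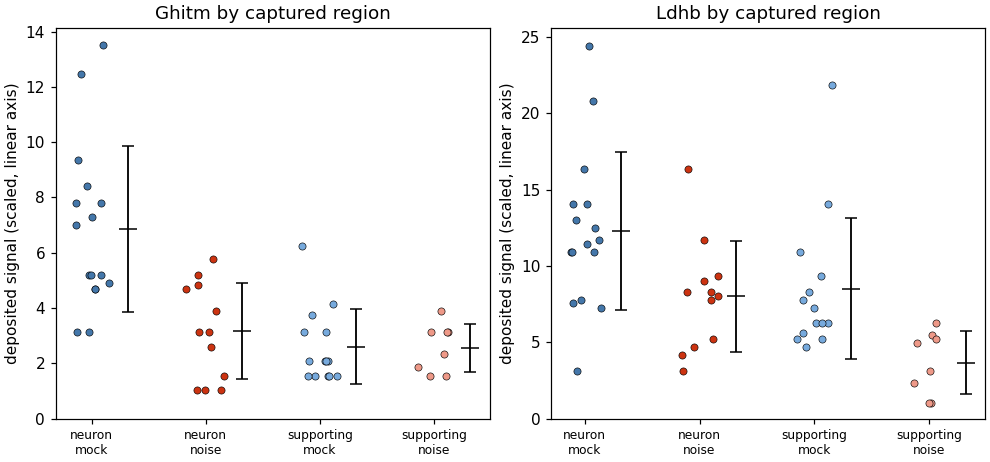
Deposited signal (linear axis, scaled by the authors) of Ghitm and Ldhb in every region used, by group, with 1 point per region and the mean ± SD beside the points. Ghitm stands out in mock neuron regions, where the mean is 6.86, and Ldhb is lowest in noise supporting-cell regions, where the mean is 3.68.

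Averaged over both treatments, Ghitm was higher in neuron than in supporting-cell regions by 0.62 (SE 0.16; limma with capture area as a random block, adjusted p = 0.000975 over 4686 genes), a ratio of 1.53. This comparison called 23.3% of all genes tested, 17.2% higher and 6.08% lower in neuron regions, so a call here is common. Tested genes with symbols from A to K, the range that holds Ghitm, had a median difference of 0.29, against -0.01 for all genes. The share called among them was not computed. Its estimate is nearly independent of the contrast that chose the gene (correlation 0.09), and weighting groups by their number of regions, which makes that correlation 0, gave 0.69. The call was lost with the neuron markers as a covariate (0.47, adjusted p = 0.786), with the glia markers (0.80, adjusted p = 0.331), with the mean of the listed olfactory receptor genes, a measure of background signal (0.55, adjusted p = 0.0705) and with recovered reads (0.49, adjusted p = 0.0559).

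A neuron and a supporting-cell region shared a capture area in 21 areas. Under mock exposure Ghitm was higher in the neuron region in 14 of 14 areas, with a median difference of 1.04 (log2) and a range of 0.15 to 2.50. After noise it was higher in the neuron region in 3 of 7 areas, with a median of -0.33 and a range of -1.01 to 1.41. A permutation test that swapped the 2 regions within areas gave p = 0.00091 over all 21 areas (mean difference 0.76, two-sided, unadjusted). The 14 mock areas, with a mean difference of 1.11, outweigh the 7 noise areas, with 0.08. Ghitm was chosen on high mock and low noise neuron values, so this p is not free of the choice. The split by treatment is a description, since it holds the contrast that chose Ghitm.

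**Figure D2:**
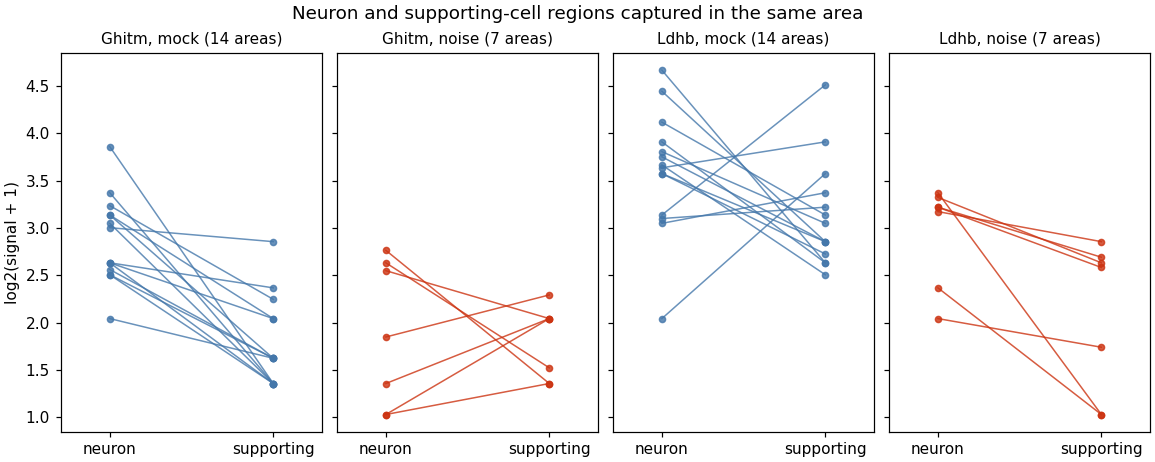
Each line joins the neuron and the supporting-cell region of 1 capture area, as log2(signal + 1), for Ghitm and Ldhb under mock (14 areas) and noise (7 areas). All 14 mock lines of Ghitm fall from neuron to supporting cells and 3 of 7 noise lines do; for Ldhb 9 of 14 mock lines and 7 of 7 noise lines fall.

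Neuron markers were also lower in noise than in mock neuron regions. Summed over the 9 listed neuron markers, the signal had a median of 238 (153 to 374) in mock neuron, 185 (99.8 to 222) in noise neuron, 61.3 (41.6 to 108) in mock supporting-cell and 77.2 (30.4 to 92.3) in noise supporting-cell regions. All 9 had a negative difference in neuron regions and 1 passed the test, which called 0.448% of all genes lower; the count was 0 under quantile normalization and after subtraction of the negative probe, and 2 under TMM. Nefh, the heavy neurofilament chain, fell by 0.68 (limma adjusted p = 0.0224). With the mean of the neuron markers as a covariate the Ghitm difference between noise and mock neuron regions was -0.91 (SE 0.23), and with the mean of the olfactory receptor genes it was -0.88 (SE 0.26). The olfactory receptor mean was 1.41 in mock and 1.60 in noise neuron regions.

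Ldhb was also highest in mock neuron regions, and its lowest group was the noise supporting-cell regions. The signal in mock neuron regions was 12.3 ± 5.17 (SD, n = 16), from 3.12 through a median of 11.6 to 24.4. In noise neuron regions it was 8.00 ± 3.62 (SD, n = 12), from 3.12 through 8.17 to 16.4. The 2 groups shared their lowest value and overlapped over most of their range, with 10 of 12 noise regions below the mock median and 2 of 16 mock regions above the highest noise region.

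In supporting-cell regions the Ldhb signal was 8.49 ± 4.62 (SD, n = 14) after mock exposure, from 4.68 through 6.76 to 21.8. After noise it was 3.68 ± 2.06 (SD, n = 8), from 1.04 through 4.05 to 6.24. All 8 noise regions lay below the mock median, 4 lay below the lowest mock region, and 7 of 14 mock regions lay above the highest noise region. The highest mock regions were replicates 7, 6 and 3, at 21.8, 14.0 and 10.9. The lowest noise regions were replicates 5 and 7, both at 1.04 and 1 read. The median was 6.5 reads after mock and 4 after noise, and 2 noise regions but no mock region lay below their negative probe.

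The order of Ldhb levels was mock neuron, mock supporting-cell, noise neuron and noise supporting-cell regions. The 2 middle groups lay well within each other's SD. Per 10000 reads of a group, Ldhb had 7.13 reads in mock neuron, 5.03 in mock supporting-cell, 4.76 in noise neuron and 2.38 in noise supporting-cell regions.

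Between noise and mock supporting-cell regions Ldhb differed by -1.06 (SE 0.25), a ratio of 0.481 on the log2(signal + 1) scale, which is given with no test because it chose the gene. Neuron regions did not choose it. There the difference was -0.56 (SE 0.21; 95% interval -0.97 to -0.14; unadjusted p = 0.00853), with a limma adjusted p of 0.196, so it did not pass the test over 4686 genes. The permutation test of the single gene gave p = 0.0219 (two-sided, unadjusted, n = 12 and 16). Tests on the recovered reads called it: edgeR's quasi-likelihood test gave -0.70 (adjusted p = 0.00508) and DESeq2 gave -0.68 (adjusted p = 0.0125). With the neuron markers as a covariate the difference was -0.26 (limma adjusted p = 0.787). The supporting-cell difference minus the neuron difference was -0.50 (SE 0.32), also without a test.

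Glia markers moved in the same regions as Ldhb. The summed signal of the 7 listed glia markers had a median of 114 (84.2 to 152) in mock supporting-cell and 50.7 (35.3 to 64.9) in noise supporting-cell regions, with no overlap, and of 34.6 (17.7 to 46.8) in mock and 21.6 (15.6 to 28.1) in noise neuron regions. All 7 had a negative difference in supporting-cell regions and 3 passed the limma test, which called 0.299% of all genes lower. The count was 4 under quantile normalization and under TMM, and 1 after subtraction of the negative probe. Among the 3, Pmp22, a peripheral myelin protein, fell by 1.09 (adjusted p = 0.0111), and Mbp, myelin basic protein, fell by 1.00 (adjusted p = 0.0275). With the mean of the glia markers as a covariate the Ldhb difference in supporting-cell regions was -0.66 (SE 0.37); with the neuron markers it was -1.03 (SE 0.23). No listed marker was at 0 in any region, because 1 read is the lowest value. Noise supporting-cell replicate 8 lists a read file of another well among its own, and without it the Ldhb difference was -1.01 (SE 0.26).

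**Figure D3:**
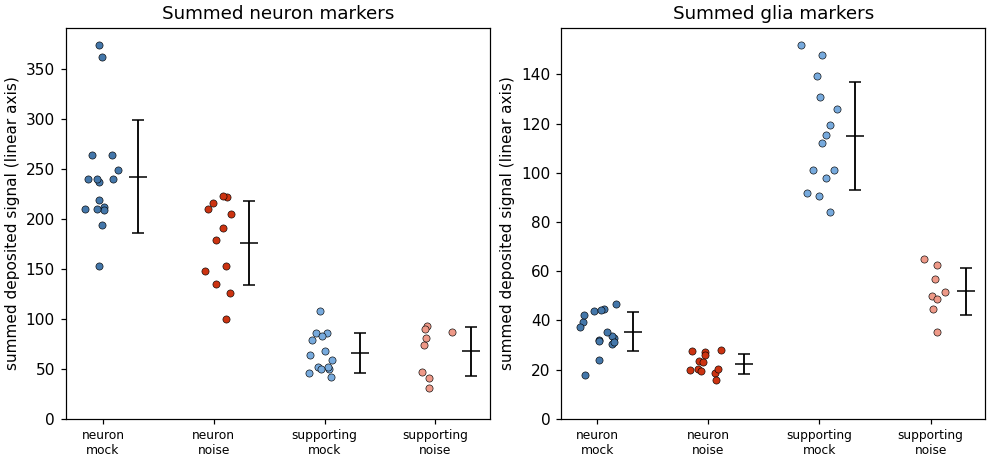
Summed signal (linear axis) of the 9 listed neuron markers and of the 7 listed glia markers in every region used, with the mean ± SD beside the points of each group. Glia markers in noise supporting-cell regions (35.3 to 64.9) lie wholly below those in mock supporting-cell regions (84.2 to 152).

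Averaged over treatments, Ldhb was higher in neuron than in supporting-cell regions by 0.74 (SE 0.16; limma adjusted p = 5.22e-05), a ratio of 1.67, in a comparison that called 17.2% of genes higher. The estimate has a correlation of -0.21 with the contrast that chose Ldhb, so a gene chosen as lower after noise tends to come out higher here. Weighting groups by their number of regions, which makes that correlation 0, gave 0.63 (limma adjusted p = 0.00045). Within capture areas the neuron region was higher in 9 of 14 mock areas (median 0.80) and in 7 of 7 noise areas (median 0.64). The permutation test within the 21 areas gave p = 0.00976 (mean difference 0.61, two-sided, unadjusted). It also weights mock areas more, and its correlation with the contrast that chose Ldhb was not computed. With the neuron markers as a covariate the sign turned, to -0.26 (adjusted p = 0.904). Region type and those markers move together, so this fit cannot tell them apart.

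Across all 50 regions the log2 levels of Ghitm and Ldhb had a Pearson r of 0.42, which fell to 0.18 once each group's mean was removed. Within groups r was 0.25 over 16 mock neuron, 0.66 over 12 noise neuron, -0.27 over 14 mock supporting-cell and -0.22 over 8 noise supporting-cell regions. These are descriptions over sparse values that share the scaling of their region.

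Other genes of energy metabolism were taken from 5 lists: relatives of Ghitm, inner membrane and calcium genes, lactate genes, glycolysis, and pyruvate and the citrate cycle. Without Ghitm and Ldhb the lists hold 134 genes, 91 of them listed in the files and 85 tested; the rest, among them Ldha, Slc16a7 and Mcu, were not analysed here. Between region types 25 of the 85 were called higher in neuron regions (29.4%, beside 17.2% of all genes) and 0 lower by limma. Scaling the recovered reads with edgeR's TMM turned this split to 20 higher and 11 lower, as it turned that of all genes from 805 higher and 285 lower to 557 and 1331, since it moved the median of all genes from -0.01 to -0.20. Counted from that median Ghitm stood at 0.67 and Ldhb at 0.88 under TMM. The median over the 85 genes was 0.18, against -0.01 for all genes tested. Differences also varied with the initial of the symbol: the 974 tested genes with symbols from A to K had a median of 0.29, and the 3355 with symbols after M or starting with a digit or a small letter -0.07.

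Among the relatives of Ghitm, 3 of 4 tested genes were called higher in neuron regions under every scaling tried, in a comparison that called 17.2% of all genes higher. These were Faim2, an inhibitor of Fas-driven cell death found in neurons, by 1.17 (SE 0.16), Grina, a glutamate receptor-associated membrane protein, by 0.60 (SE 0.16), and Tmbim4, a Golgi member of the family, by 0.49 (SE 0.15). Tmbim6, the endoplasmic reticulum member also called Bax inhibitor, had a difference of 0.00 (SE 0.15; adjusted p = 0.992). Grina lost its call with recovered reads as a covariate (0.49, limma adjusted p = 0.061) and under DESeq2 (0.44, adjusted p = 0.123). Tmbim4 lost its call with recovered reads (0.32, limma adjusted p = 0.235) and the olfactory receptor mean (0.33, limma adjusted p = 0.337) as covariates. DESeq2 did not call Tmbim4 either (0.68, adjusted p = 0.079). None of the 4 passed the test between noise and mock. In neuron regions, where Ghitm differed by -0.95, Faim2 had -0.30, Grina -0.30, Tmbim6 -0.18 and Tmbim4 0.11.

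Of 20 inner membrane and calcium genes 2 were higher in neuron regions: Vdac1, the main pore of the outer membrane, by 0.58 (SE 0.16), and Smdt1, a small subunit of the calcium uniporter, by 0.43 (SE 0.15). That count is a smaller share than the 17.2% of all genes called higher, and it became 1 higher and 2 lower under TMM and 7 higher after subtraction of the negative probe. Afg3l2, a subunit of the inner membrane protease whose activity Ghitm restrains, missed the threshold at 0.37 (SE 0.15; adjusted p = 0.063). Opa1, which fuses inner membranes, had 0.35 (adjusted p = 0.090), Immt, a core of the cristae junction, 0.30 (adjusted p = 0.125), and Letm1, an ion exchanger, 0.17. The median over the 20 was 0.11, and -0.08 under TMM. None passed the test between noise and mock. In neuron regions Vdac1 had -0.44 and Afg3l2 -0.02, and in supporting-cell regions they had 0.06 and -0.29.

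Among 3 tested lactate genes besides Ldhb, Nptn, a membrane partner of lactate transporters and an adhesion molecule of synapses, was higher in neuron regions by 1.36 (SE 0.16; adjusted p = 1.38e-16). Slc16a1, the lactate transporter MCT1, had -0.33 (SE 0.15; adjusted p = 0.085). It was called lower in neuron regions under quantile normalization (-0.35, limma adjusted p = 0.0451) and under TMM (-0.57, limma adjusted p = 0.00476). It stayed uncalled in 12 of 14 alternatives. Of 50 leave-one-out fits 2 called it, without noise supporting-cell replicate 4 (-0.42) or 7 (-0.40). Its median was 1 read in mock neuron and mock supporting-cell regions, 2.5 in noise neuron and 3 in noise supporting-cell regions. At 1 read the signal is the worth of a read, which was lower in the deeper mock neuron regions. These calls therefore cannot tell a lower level from that floor. Bsg, or basigin, which brings MCT1 to the cell surface, had 0.17 (SE 0.16). In supporting-cell regions Bsg had a signal of 5.88 ± 2.26 (SD, n = 14) after mock and 2.74 ± 0.74 (SD, n = 8) after noise. This difference of -0.84 (SE 0.25) did not pass the limma test (adjusted p = 0.108). It was called under quantile normalization (-0.90, limma adjusted p = 0.0331) and with recovered reads as a covariate (-0.96, limma adjusted p = 0.0335). In neuron regions Bsg had -0.47 (limma adjusted p = 0.304), and edgeR (-0.67, adjusted p = 0.0196) and DESeq2 (-0.66, adjusted p = 0.0259) called it.

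Of 19 tested glycolysis genes 9 were called higher in neuron regions than in supporting-cell regions, by a limma comparison that called 17.2% of all genes higher. The largest differences were those of Eno2, the neuronal enolase, by 1.38 (SE 0.16), Pkm, pyruvate kinase, by 0.97 (SE 0.16), Gapdh, which oxidises glyceraldehyde phosphate, by 0.69 (SE 0.15), and Gpi1, glucose phosphate isomerase, by 0.67 (SE 0.16). Aldoc had 0.17 (adjusted p = 0.422). The list's median was 0.32, and 0.15 under TMM, which called 7 higher and 4 lower.

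Of all 85 genes, 2 passed the limma test between noise and mock neuron regions, both of them glycolysis genes (2.35%, beside 0.448% of all genes called lower and 0.213% higher). Aldoa, the aldolase that splits fructose bisphosphate, fell from 15.6 ± 5.56 (SD, n = 16) to 8.60 ± 3.47 (SD, n = 12), by 0.85 (SE 0.21; adjusted p = 0.0195). Pkm fell from 11.5 ± 4.70 (SD, n = 16) to 5.83 ± 2.21 (SD, n = 12), by 0.84 (SE 0.21; adjusted p = 0.0224). The list's median was -0.19, with 15 of 19 genes below 0, and all genes had a median of 0.02; genes with symbols from A to K, the range that holds Ghitm and Gapdh, had -0.19. Leaving out noise neuron replicate 10 ended both calls; the Pkm call ended without noise neuron replicate 2 or 5 or mock neuron replicate 9 or 10, and the Aldoa call without noise neuron replicate 9. Quantile normalization, subtraction of the negative probe and the olfactory receptor, neuron marker and glia marker covariates each left 0 of the list genes called.

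In supporting-cell regions 0 of the 85 genes passed the limma test between noise and mock, which called 0.363% of all genes, 0.064% higher and 0.299% lower (17 of 4686; 474 had an unadjusted p under 0.05). The tests by edgeR and DESeq2 on recovered reads also called 0 of them, while quantile normalization called 2 and recovered reads as a covariate 1. The median over the 85 was -0.11, against -0.03 for all genes and -0.17 for genes with symbols from A to K. Gapdh had -0.59 (SE 0.24; adjusted p = 0.328) and Gpi1 -0.63 (SE 0.24; adjusted p = 0.280).

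Of 39 pyruvate and citrate cycle genes 10 were called higher in neuron regions, beside 17.2% of all genes. The count was 8 higher and 4 lower under TMM and 17 higher after subtraction of the negative probe. The largest difference in any of the 5 lists was that of Mdh1, the cytosolic malate dehydrogenase of the malate-aspartate shuttle, by 1.55 (SE 0.14; adjusted p = 1.57e-26). Got1, the cytosolic transaminase of that shuttle, was higher by 0.93 (SE 0.16), Mdh2, its mitochondrial dehydrogenase, by 0.90 (SE 0.16), and Idh3a, a subunit of isocitrate dehydrogenase, by 0.90 (SE 0.16). Pdha1, of the pyruvate dehydrogenase complex, had 0.18 and Cs, citrate synthase, 0.26, and neither passed the test. None of the 39 passed the limma test between noise and mock. Mdh1 had -0.49 (SE 0.19, limma adjusted p = 0.196) in neuron regions and 0.28 (SE 0.21, limma adjusted p = 0.731) in supporting-cell regions. On recovered reads Mdh1 was called lower in noise neuron regions by edgeR (-0.61, adjusted p = 0.00099) and by DESeq2 (-0.57, adjusted p = 0.000588).

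**Figure D4:**
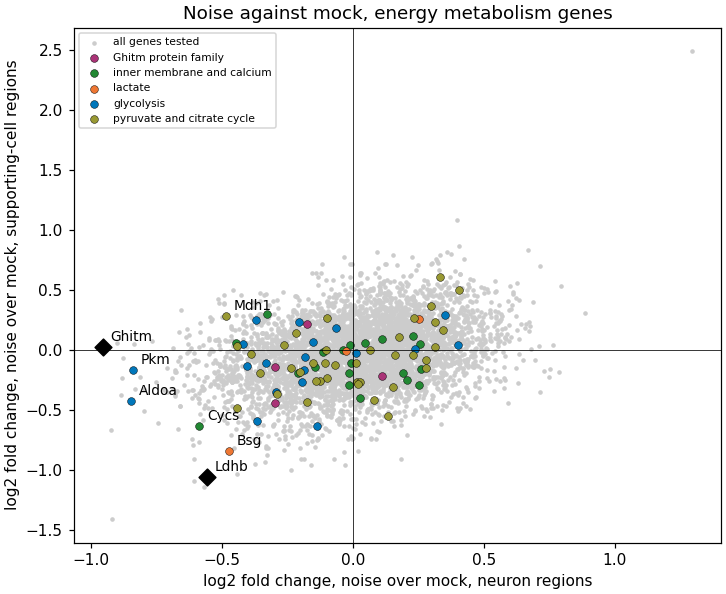
Difference between noise and mock on the log2(signal + 1) scale in neuron regions (horizontal axis) and in supporting-cell regions (vertical axis), for all 4686 genes tested in grey and the 85 list genes in colour, with Ghitm and Ldhb as black diamonds. Ghitm lies at -0.95 and 0.03, Ldhb at -0.56 and -1.06, and Aldoa and Pkm, the 2 list genes that passed the test in neuron regions, at -0.85 and -0.84 on the horizontal axis; Bsg, Cycs and Mdh1 are labelled for orientation.

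The genes most like each member were taken by Pearson r of the log2 levels over the 50 regions, among the 2325 more abundant genes tested. For Ghitm they were Zfp804a (r = 0.67), Map1a (0.65), a microtubule-associated protein of neurons, Gnas (0.64), the stimulatory G protein subunit, Atp6v0a1 (0.63), a subunit of the proton pump of vesicles and lysosomes, and Spp1 (0.62), or osteopontin, beside a median r of 0.09. Spp1 also stood in the list of bone and connective tissue markers. With group means removed these r fell to between 0.28 and 0.41. All 5 were higher in neuron than in supporting-cell regions in mean signal under mock exposure, for example Map1a at 25.8 against 7.14, as Ghitm was. Since r was taken with the group differences left in, this likeness is largely part of how they were picked.

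For Ldhb the most alike genes were Atp5a1 (r = 0.70), a subunit of the mitochondrial ATP synthase, Abhd12 (0.70), a lipase of lysophosphatidylserine, Brsk1 (0.69), a kinase of neuronal polarity, Eef2 (0.69), the translation elongation factor, and Dst (0.67), the linker protein dystonin, beside a median r of 0.14. With group means removed r lay between 0.49 and 0.57. Atp5a1 had mean signals of 30.0 in mock neuron, 21.0 in noise neuron, 12.9 in mock supporting-cell and 9.28 in noise supporting-cell regions. These r are descriptions over regions that share scaling and, in part, animals.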

How the data were processed

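GeoMx regions were grouped by title. The authors deposited a signal value per gene and region, scaled to a common upper quartile (found from the values). Per the submitters' processing notes, DRAGEN, mm10 and GRCm38 were used; further steps are not given in the sources used here. Dividing by the lowest value gave whole reads for 99.99% of values (within 0.01); treatment of counts of 0 is not known. The 66 missing entries touch neither gene. No 2 regions were identical.

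Values were tested as log2(signal + 1) with limma 3.58.1 in R 4.3.3 (eBayes with a trend, 1 mean per group, 50 regions), keeping genes whose mean signal reached the 0.25 quantile (1.85). Region type used the capture area as a random block (consensus correlation 0.0389). P-values were adjusted by Benjamini-Hochberg over 4686 genes and called at 0.05. The design allowed for counts or signal, and the form for signal was used. edgeR 4.0.16 and DESeq2 1.42.0 on recovered reads were alternatives. Leave-one-out fits kept the area correlation of all regions. The tests were tested on simulated data. P-values measure the spread between regions.

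Replicate numbers did not pair regions: mock neuron replicate 2 lay in capture area 2 and mock supporting-cell replicate 2 in area 3. Correlations of deviations ran from -0.10 to 0.06 over same-numbered regions. They cannot decide pairing, since neuron and supporting-cell regions of 1 area had only -0.01 to 0.11.

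Ghitm, Ldhb, the gene lists and the tests were chosen with earlier results of these data known. Genes named are fixed partners, up to 4 called genes with the largest difference per list and comparison, and the 5 most alike genes. Nefh, Pmp22, Mbp, Cycs, Coch and Sparc were named after their values were seen. Some genes picked by these rules are not reported here.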

Additional observations from a re-analysis of the deposited data

Results flagged for a closer look

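The negative probe of noise supporting-cell replicate 2 stood at a signal of 1.89, while the other 7 regions of the group lay between 1.24 and 1.44. Its gap to the nearest region was large for the range of the group. It was found among 5 quantities whose highest and lowest regions were checked in this group, and chance alone carries about 1 in 20 groups past the threshold used. In that region Ghitm was at 1.56, with 1 read, and Ldhb at 6.24.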

How the results depend on the processing

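The calls of Ghitm and Ldhb between region types kept their direction and side of the threshold in 16 of 20 and 19 of 20 alternatives. The exceptions were the covariates added after seeing the data (neuron markers: 0.47, adjusted p = 0.786, for Ghitm and a reversed -0.26 for Ldhb; glia markers: 0.80, adjusted p = 0.331, for Ghitm) and the planned covariates (olfactory receptor mean 0.55, recovered reads 0.49, both for Ghitm). Ghitm in supporting cells stayed uncalled in all 18, although DESeq2, counted among them, gave it no adjusted p. Ldhb in neurons was called only by edgeR (-0.70) and DESeq2 (-0.68). The permutation test of the single gene (-0.56, p = 0.0219) is unadjusted, so it is not a call over all genes. The other single-gene permutation tests counted among these alternatives are unadjusted too. A pseudocount of 10 shrank Ghitm in neurons to -0.35 and Ldhb in supporting cells to -0.42. Leaving out each region in turn gave 0.58 to 0.66 (Ghitm) and 0.66 to 0.79 (Ldhb) between region types, -0.04 to 0.11 for Ghitm in supporting cells, -0.66 to -0.47 for Ldhb in neurons, -1.03 to -0.87 for Ghitm in neurons and -1.17 to -0.91 for Ldhb in supporting cells. It left 23 to 26 list genes called between region types, 0 to 2 in neurons and 0 in supporting cells.

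The 25 list genes called between region types became 38 after subtracting the negative probe, 16 with the olfactory receptor mean and 15 with recovered reads as covariates, 16 under DESeq2, 4 with the glia markers and 0 with the neuron markers. The 2 in neurons became 0 under quantile normalization, after subtracting the negative probe and with the olfactory receptor, glia and neuron marker covariates, 5 under edgeR and 4 under DESeq2. The 0 in supporting cells became 2 under quantile normalization and 1 with recovered reads. The cause was not tested.

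With the replicate block, 1 list gene stayed called in neurons, Ghitm between region types was 0.67, Ldhb 0.83, and no call of either gene changed. Over all genes, 1090, 31 and 17 calls (region type, neurons, supporting cells) changed under TMM to 1888 in the first case and 60 in the second. In neurons 31 became 47 (pseudocount 10), 6 (quantile), 7 (negative probe), 3 (olfactory receptors), 19 (replicate block), 183 (edgeR), 133 (DESeq2), 4 (neuron markers) and 10 (glia markers). In supporting cells 17 became 26 (pseudocount 10), 11 (no filter), 53 (quantile), 8 (edgeR), 11 (DESeq2) and 3 (glia markers). Between region types 1090 became 554, 662, 21 and 180 with olfactory, read, neuron and glia covariates. The 31 fell to as few as 12 without noise neuron replicate 2, and also moved by over 1.5 times without noise replicates 1, 9 and 10 or mock replicates 9 and 10. The 17 fell to 3 without noise replicate 7, and moved likewise without noise replicates 4, 5 and 8 or mock replicates 6, 8, 9 and 12. Depth limits both genes in supporting-cell regions, where their median lay between 2 and 6.5 reads.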
